A study of Rattus norvegicus with 5 samples.

Results

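The 7 genes Il1b, Il1r1, Il18, Casp1, Nfkbia, Tnfrsf1a and Tnf, which act in inflammatory cytokine signalling, were followed in retinal Müller cells of normal and diabetic rats. Every probe set whose annotation gave 1 of these symbols and no other was taken, which gave 16 of the 8740 probe sets that are not controls and 7 of the 4736 genes with such a probe set. Total RNA of cells from male Sprague-Dawley rats was measured on 5 oligonucleotide arrays of the RG_U34A type. The normal group comprised 3 pools of healthy rats, 12 rats to a pool, on 1 array each. For the diabetic group 2 arrays were run from a pool of 12 rats, which had been diabetic for 6 months after streptozotocin (spelled streptozotozine in the labels) and had been given a low insulin dose against wasting. The second diabetic array is labelled a technical replicate, so both were averaged into 1 pool, and the animals' age is not given in the sources used here. Pooled retinas and a single diabetic pool limit the comparison: all the spread in the tests below came from the normal pools, and the p-values assume that diabetic pools vary as much.

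Interleukin-1β is made as an inactive precursor that the protease caspase-1 cuts, as is interleukin-18. Its receptor and the type 1 TNF receptor both lead to the IκB kinases, which mark the inhibitor IκBα for destruction and so release NF-κB to enter the nucleus. NF-κB then switches on genes of cytokines, adhesion molecules and of IκBα itself, which closes a feedback loop. Müller cells span the retina and support its neurons, and both they and microglia are known to respond to these cytokines.

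The promoters of Nfkbia, Il1b and Tnfrsf1a are shown because these were the 3 tested genes with a probe set that read higher on both diabetic arrays than on any normal array. Each runs from 250 bases before to 50 bases after the RefSeq gene start, 5′ to 3′ along the gene. Capitals mark matches on either strand to the NF-κB consensus or to TATAAA, and TTTATA is TATAAA on the opposite strand.
Nfkbia, GRCr8 chr6:78597023-78597322, minus strand: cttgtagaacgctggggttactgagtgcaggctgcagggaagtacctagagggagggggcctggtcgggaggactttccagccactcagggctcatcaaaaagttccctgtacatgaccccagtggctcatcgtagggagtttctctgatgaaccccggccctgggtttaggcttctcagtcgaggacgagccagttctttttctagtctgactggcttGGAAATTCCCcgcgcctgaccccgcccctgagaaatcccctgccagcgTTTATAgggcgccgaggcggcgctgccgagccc
Il1b, GRCr8 chr3:137036532-137036831, minus strand: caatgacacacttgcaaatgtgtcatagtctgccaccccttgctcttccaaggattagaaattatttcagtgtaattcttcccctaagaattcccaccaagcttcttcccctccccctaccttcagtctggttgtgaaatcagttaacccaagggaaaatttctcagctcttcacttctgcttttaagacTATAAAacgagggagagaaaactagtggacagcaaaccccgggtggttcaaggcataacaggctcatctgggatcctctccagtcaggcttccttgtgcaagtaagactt
Tnfrsf1a, GRCr8 chr4:159836869-159837168, plus strand: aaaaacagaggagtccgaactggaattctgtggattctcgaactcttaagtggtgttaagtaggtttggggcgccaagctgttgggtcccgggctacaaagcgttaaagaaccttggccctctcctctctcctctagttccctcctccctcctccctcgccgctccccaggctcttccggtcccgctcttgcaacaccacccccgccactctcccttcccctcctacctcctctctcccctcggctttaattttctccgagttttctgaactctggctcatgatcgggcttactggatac
The only NF-κB match among these 3 windows was GGAAATTCCC of Nfkbia, which begins 31 bases before the gene start. All 7 genes had a promoter in the table, and 2 of the 7 held an NF-κB match, the other being Il1r1. Of all 33469 promoters of that length 7.51% held one. TATAAA was found in 3 of the 7 (Il1b, Tnf and Nfkbia) and in 14.2% of all promoters, and TGANTCA, an AP-1 motif that overlaps neither of the others here, in 1 of the 7 (Il18) and in 7.33% of all. These matches describe letters in a window and do not show binding.

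The deposited signals are linear intensities with no common scale, with array medians from 27.9 to 91.3. They were quantile-normalised, raised to a floor of 20 where they were lower and put on the log2 scale, where the floor is 4.32. Log2 signals below are of this kind. The 30% dimmest probe sets were left out of the test, and 6118 were tested. Degraded RNA raises the 3′ over the 5′ signal of actin, and this ratio was high on normal array 1 (2.61) and diabetic array 2 (2.55); the other 3 arrays, at 1.46 to 1.76, are called the low-ratio arrays below. Normal array 3 and diabetic array 2, the same-day pair below, shared their processing day and lot of chips, normal arrays 1 and 2 each had their own, and those of diabetic array 1 were not recorded. The Müller cell gene Glul, encoding glutamine synthetase, was bright on every array, at log2 signals of 12.88, 13.19 and 13.53 in normal and 13.02 and 12.96 in diabetic cells. The potassium channel gene Kcnj10, another Müller marker, was dimmer, at 4.96 to 6.30, and Gfap and Rlbp1 had no probe set with 1 symbol. The summed linear signal of 11 Müller markers was 34478 to 45222 on normal and 39931 to 40866 on diabetic arrays. This sum is weighted to the brightest markers. Of the 11, 3 lay above and 8 below normal, with a median log2 difference of -0.10, where 49.2% of all tested genes lay above.

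The test covered 7 of the 16 probe sets, representing 4 of the 7 genes: Il1b with 3 probe sets, Nfkbia with 2, and Casp1 and Tnfrsf1a with 1 each. The other 9 were too dim, among them every probe set of Il1r1, Il18 and Tnf. No tested probe set of the 7 genes passed limma's test after Benjamini-Hochberg adjustment over all 6118, where the share that passed was 0%. At an unadjusted p under 0.05 there was 1 of the 7 tested, that of Tnfrsf1a, against 98 of all tested probe sets (1.6%), of which 73 lay above (1.19%) and 25 below normal (0.409%). All 7 had a positive difference, as did 48.8% of all tested probe sets. Among the 9 dim ones the log2 differences were of both signs, from -0.51 (Tnf) to 0.66 (U14010_g_at of Il1r1). On 3 of the 7, both diabetic arrays exceeded every normal array (X63594cds_g_at of Nfkbia, M98820_at of Il1b and M63122_at of Tnfrsf1a), where the share over all tested probe sets was 9.53%. They lay below for 0 of the 7, where that share was 7.01%. Over all 16 probe sets, tested or not, the diabetic arrays lay above for 4, against 7.08% of the 8740, and below for 0, against 5.34%. The 16 are no set of separate observations, because several probe sets share a gene or a sequence record.

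**Figure D1:**
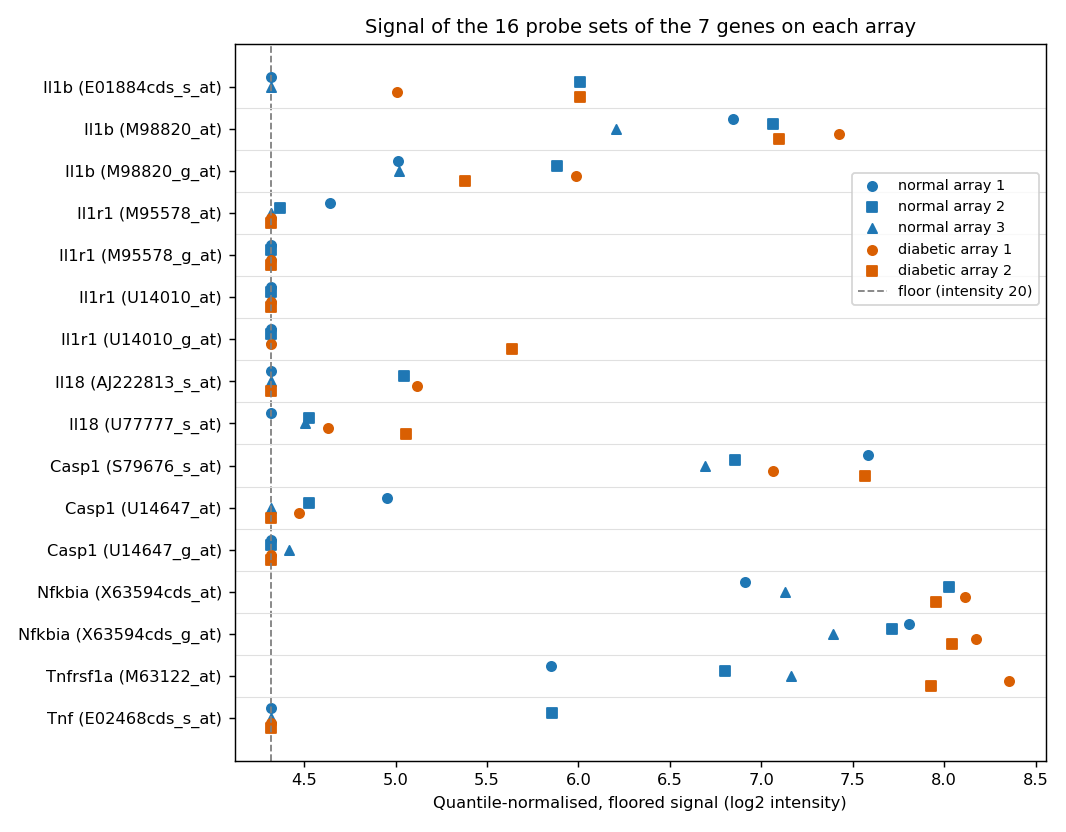
Each row is 1 probe set and the horizontal axis its quantile-normalised, floored log2 intensity. Blue symbols are the 3 normal arrays, orange symbols the 2 diabetic arrays, and the dashed line is the floor at 4.32, where values have no order. The diabetic arrays stand to the right of all normal arrays for Tnfrsf1a, for 1 probe set of Nfkbia and narrowly for 1 of Il1b. They do so too for U77777_s_at of Il18, by 0.10 and close to the floor. Most values of Il1r1, Il18 and Tnf lie at or near the floor.

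Tnfrsf1a encodes the type 1 TNF receptor, the receptor through which soluble TNF reaches most cells. It had the largest difference of the tested members, at 2.90 times its normal signal. Its deposited signal was 40, 52.1 and 233.7 on normal arrays 1, 2 and 3 and 356.5 and 280.4 on diabetic arrays 1 and 2. On the log2 scale these were 5.85, 6.80 and 7.16 in normal cells (mean 6.61 ± 0.68, SD over 3 pools) and 8.35 and 7.93 in diabetic cells. Both diabetic arrays were above every normal array, the nearest pair being 0.76 apart, but the normal arrays alone spanned 1.31. Ranked within each array, the probe set stood at percentiles 49.4, 65.3 and 71.3 in normal and 86.3 and 82.0 in diabetic cells. The log2 difference was 1.54 (SE 0.59, 95% interval 0.06 to 3.01), the 38th highest of 6118. In limma the unadjusted p was 0.0434 and the adjusted p 0.9999. With dim probe sets kept in the test the unadjusted p was 0.111, and with unscaled values it was 0.236, both by limma. The unadjusted p no longer fell under 0.05 without normal array 2 (0.0799; adjusted p = 0.9998) or diabetic array 1 (0.0871; adjusted p = 0.9983), without trend (0.0518) or with a floor of 50 (0.0990).

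The size of this difference rests partly on normal array 1, the lowest of the normal arrays. The arrays with a high actin ratio, normal array 1 and diabetic array 2, were the lowest and the second highest of the 5, and the part of RNA quality in the difference was not tested. Without normal array 1 the difference was 1.16, and among the 3 low-ratio arrays it was 1.37. Within the same-day pair it was 0.76, about a factor of 1.70 in signal. The normal array of that pair was the highest of the normal arrays. The gene has only this 1 probe set.

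Nfkbia encodes IκBα, the inhibitor that holds NF-κB in the cytoplasm and is itself an NF-κB target. Of the tested genes among the 7, only Nfkbia held an NF-κB match in its promoter window. The probe sets X63594cds_at and X63594cds_g_at of Nfkbia were designed on 1 sequence record, so they are not independent. On X63594cds_at the log2 signal was 6.91, 8.02 and 7.13 on the normal arrays and 8.11 and 7.95 on the diabetic arrays. Normal array 2 lay between the diabetic arrays, so the groups overlapped. On X63594cds_g_at it was 7.81, 7.71 and 7.39 on the normal arrays and 8.17 and 8.04 on the diabetic arrays, all of the latter above normal by at least 0.24. The log2 differences were 0.68 (SE 0.51, 95% interval -0.60 to 1.96) and 0.47 (SE 0.33, 95% interval -0.35 to 1.30). By limma the unadjusted p was 0.239 and 0.208 and the adjusted p 0.9999 for both. The intervals include no difference as well as a signal of up to 3.89 times normal on X63594cds_at and 2.46 times on X63594cds_g_at.

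Il1b encodes interleukin-1β. The 3 probe sets gave differences of one sign but unequal size. On M98820_at, the brightest of them, the deposited signal was 74, 62.9 and 114.6 in normal and 185.3 and 161.2 in diabetic cells. The normalised log2 signal there was 6.84, 7.06 and 6.20 on the normal arrays and 7.42 and 7.10 on the diabetic arrays. Both diabetic arrays were highest, but diabetic array 2 was above normal array 2 by only 0.033. On M98820_g_at, from the same sequence record, the log2 signal was 5.01, 5.88 and 5.02 in normal and 5.99 and 5.38 in diabetic cells, and normal array 2 lay between the diabetic arrays. On E01884cds_s_at it was at the floor on normal arrays 1 and 3, 6.01 on normal array 2, and 5.01 and 6.01 on the diabetic arrays, so that normal array 2 equalled the higher diabetic array to 2 decimals.

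The log2 differences of Il1b were 0.56 (SE 0.48, 95% interval -0.65 to 1.76) for M98820_at, 0.38 (SE 0.58, 95% interval -1.06 to 1.82) for M98820_g_at and 0.62 (SE 0.82, 95% interval -1.42 to 2.66) for E01884cds_s_at. The last is measured against 2 normal arrays at the floor, so its size depends on the floor, and it was -0.16 among the 3 low-ratio arrays. None had an unadjusted p under 0.05 in limma (0.296, 0.537 and 0.477, adjusted p = 0.9999 for each). The difference of M98820_at was 0.31 without normal array 3, that of M98820_g_at was 0.08 without diabetic array 1, and that of E01884cds_s_at was 0.34 without either normal array 1 or normal array 3 and 0.12 without diabetic array 2. In the deposited values, before any scaling, both diabetic arrays exceeded every normal array on all 3 probe sets of Il1b, but deposited diabetic signals also ran higher over all tested probe sets, by a median of 0.47 on the log2 scale.

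Casp1 encodes caspase-1, the protease that cuts the precursors of interleukin-1β and interleukin-18. On S79676_s_at the log2 signal was 7.58, 6.86 and 6.69 on the normal arrays and 7.06 and 7.57 on the diabetic arrays. Both diabetic arrays lay within the range of the normal arrays, of which array 1 was the highest of the 5. The log2 difference was 0.27 (SE 0.48, 95% interval -0.92 to 1.46; limma, adjusted p = 0.9999), and it was 0.02 without diabetic array 2, 0.10 without normal array 3, 0.54 without normal array 1 and 0.88 within the same-day pair. The other 2 probe sets, both from 1 other record, were dim. U14647_at read 4.95, 4.53 and 4.32 on the normal and 4.47 and 4.32 on the diabetic arrays, and U14647_g_at was at the floor on 4 of 5 arrays and at 4.42 on normal array 3.

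**Figure D2:**
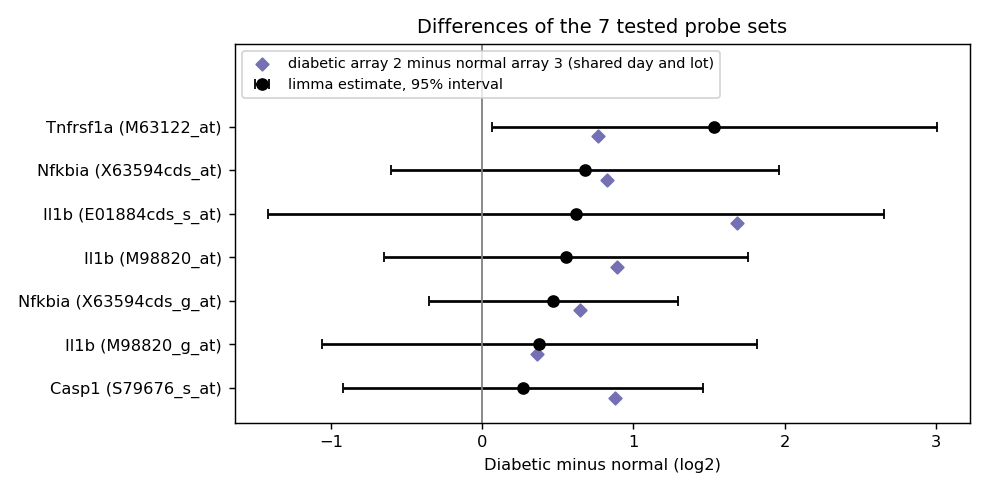
Black points are the log2 differences, diabetic minus normal, of the 7 tested probe sets with their 95% intervals from limma, and violet diamonds the difference within the same-day pair. The interval of Tnfrsf1a, 0.06 to 3.01, is the only one of the 7 that leaves out 0, before adjustment for the number of probe sets tested.

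The receptor and ligands Il1r1, Il18 and Tnf could not be compared, because their signal was at or near the floor. For Il1r1, the receptor that passes on the interleukin-1 signal, M95578_g_at and U14010_at were at the floor on all 5 arrays, with deposited signals of 1.6 to 19.3 and 0.9 to 5.5. M95578_at read 4.64, 4.37 and 4.32 in normal cells and the floor on both diabetic arrays. U14010_g_at stood above the floor on diabetic array 2 alone, at 5.64, with a deposited signal of 61.9 against 11.2 on diabetic array 1, its technical repeat. When dim probe sets were kept in the test, this probe set was the only one of the 16 with an adjusted p under 0.05 (3.07e-04 by limma). There its 3 normal arrays all sat at the floor and so showed no spread, and its difference of 0.66 came from that 1 array.

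Il18 encodes interleukin-18, a caspase-1 substrate. On U77777_s_at the log2 signal was 4.32, 4.53 and 4.50 in normal and 4.63 and 5.06 in diabetic cells, above normal on both diabetic arrays but never far from the floor of 4.32. On AJ222813_s_at it was 4.32, 5.05 and 4.32 in normal and 5.12 and 4.32 in diabetic cells, with no separation. Tnf, the ligand of the type 1 TNF receptor, was at the floor on normal arrays 1 and 3 and on both diabetic arrays, and read 5.86 on normal array 2. Its deposited signal was 11.5, 27.3 and 17.2 in normal and 14.5 and 21.5 in diabetic cells. A dim signal here does not show that a transcript is missing, since the probes' own sensitivity is unknown.

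Markers of microglia and other leukocytes, which also make interleukin-1β and carry TNF receptors, also lay mostly above normal. Of 20 markers 13 were on the array with 1 symbol and 11 were tested. The difference was positive for 10 and negative for 1, with a median of 0.80 on the log2 scale, and both diabetic arrays exceeded all normal arrays for 8. Over all 3623 tested genes that share was 9.83% and the median -0.01. The summed linear signal of the 11 markers was 1554 to 1995 on normal and 2472 to 2814 on diabetic arrays. That sum is weighted to the brightest of them, Ctss, at log2 signals of 9.90, 10.30 and 10.02 on normal and 10.41 and 10.60 on diabetic arrays. None of the 13 was at the floor on all arrays, although Itgam and Csf1r, both defining genes of microglia, were too dim to be tested. The 1 marker below normal was Cx3cr1, the fractalkine receptor of microglia, which differed by -0.41 (SE 0.46) and was named after its value was seen. Photoreceptor markers also read higher, with a summed signal of 4124 to 9757 for 7 genes on normal and 12355 to 13189 on diabetic arrays. All 7 lay above normal (49.2% of all tested genes), with a median log2 difference of 0.91. Both diabetic arrays exceeded all normal arrays for 4 of them (9.83% of all tested genes). Of 6 tested markers of endothelium and pericytes, 1 lay above and 5 below normal, with a median of -0.24. The part of other cell types in the differences above was not tested, and in pooled cells a change in the number of cells of a type cannot be told apart from a change in RNA per cell.

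The wider interleukin-1 family had 13 of 31 listed genes on the array and 9 tested, Il1b and Casp1 among them. Of the 9, 6 lay above and 3 below normal, with a median log2 difference of 0.03, where 49.2% of all 3623 tested genes lay above. By limma 0 passed after adjustment, and at an unadjusted p under 0.05 there was 1 above normal (0.994% of all tested genes) and 0 below (0.331%). That 1 gene was Il1rl2, a receptor for interleukin-36 cytokines, which differed by 0.77 within the same-day pair. Its log2 signals were 5.05, 4.67 and 5.40 in normal and 7.30 and 6.17 in diabetic cells. Over all arrays Il1rl2 differed by 1.70 (SE 0.52; limma, adjusted p = 0.9999). With unscaled values its unadjusted p in limma was 0.105 (adjusted p = 0.9996). Its unadjusted p no longer fell under 0.05 without normal array 2 (0.0712; adjusted p = 0.9998) or diabetic array 1 (0.0640; adjusted p = 0.9983). Il1rl1, which encodes the interleukin-33 receptor, had 6.20, 5.93 and 5.96 in normal and 5.54 and 5.16 in diabetic cells, a difference of -0.68 (SE 0.46). The decoy receptor Il1r2, which binds interleukin-1 without signalling, differed by 0.03 (SE 0.66). The sign for Il1r2 turned without either of normal arrays 2 and 3 or without diabetic array 1. The receptor antagonist Il1rn was at the floor on all 5 arrays.

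In the TNF superfamily list 17 of 36 genes were on the array and 9 were tested, of which 4 lay above and 5 below normal, with a median of -0.07, where 49.2% of all tested genes lay above. By limma 0 passed after adjustment. At an unadjusted p under 0.05 there was 1 above normal, Tnfrsf1a (0.994% of all tested genes), and 1 below, Adam17 (0.331%). Adam17 encodes the protease that sheds TNF and its receptors from the cell surface. Its log2 signal was 6.78, 6.75 and 6.43 in normal and 5.29 and 5.54 in diabetic cells, a difference of -1.24 (SE 0.44, 95% interval -2.33 to -0.15; adjusted p = 0.9999). Both diabetic arrays were below all normal arrays, where the share over all tested genes was 7.01%. The difference was -0.90 within the same-day pair, and its unadjusted p no longer fell under 0.05 without normal array 2 (0.123; limma, adjusted p = 0.9998) or normal array 3 (0.0589; adjusted p = 0.9997). With unscaled values the unadjusted p of Adam17 in limma was 0.664 (adjusted p = 0.9996). The tested probe sets AJ012603UTR#1_at and AJ012603UTR#1_g_at, which carry the same record number but no symbol in the annotation used, differed by 0.00 (SE 0.47) and 0.54 (SE 0.80), unlike the probe set of Adam17. Tnfsf13, the B-cell factor APRIL, differed by -0.51 (SE 0.39) on its brightest probe set, but by 0.66 and 0.17 on the other 2. The type 2 TNF receptor gene Tnfrsf1b had 2 probe sets. U55849_at was at the floor on all arrays, and rc_AA900380_at on all but normal array 2, where it read 4.49.

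Of the NF-κB subunits, inhibitors and kinases 7 of 31 listed genes were on the array and 6 were tested. All 6 lay above normal, against 49.2% of all 3623 tested genes, with a median of 0.33, or 0.28 over the 5 other than Nfkbia. The smallest difference was 0.01 (SE 0.47). Both diabetic arrays exceeded every normal array for 2 of the 6, where the share over all tested genes was 9.83%. By limma 0 passed after adjustment and 0 had an unadjusted p under 0.05, so the shared sign is a count of directions only. Nfkb1, which encodes the p105 precursor of the NF-κB subunit p50, had log2 signals of 6.79, 7.59 and 7.17 in normal and 8.43 and 7.71 in diabetic cells. Both diabetic arrays were above normal, by 0.12 at the nearest, with a difference of 0.89 (SE 0.42, 95% interval -0.17 to 1.95; adjusted p = 0.9999). It was 0.53 without diabetic array 1. Map3k1, a kinase upstream of the JNK and NF-κB pathways, differed by 0.39 (SE 0.53), 0.71 (SE 0.35) and 0.57 (SE 0.69) on 3 probe sets, the first of which gave 0.075 without diabetic array 1 and 0.089 without normal array 3. The subunit Rela had no probe set with 1 symbol in the annotation used.

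Among known NF-κB target genes 40 of 53 listed were on the array and 33 were tested, Il1b and Nfkbia among them. The difference was positive for 20 and negative for 13, with a median of 0.02, and 0 passed limma's adjustment. At an unadjusted p under 0.05 there were 2 above and 0 below, where the shares over all tested genes were 0.994% and 0.331%. The inducible nitric oxide synthase Nos2 (U16359cds_at) read 4.60, 5.03 and 4.72 in normal and 8.0 and 7.22 in diabetic cells, and the lipocalin Lcn2 read 6.43, 7.66 and 7.14 in normal and 9.22 and 9.41 in diabetic cells. Neither passed limma's adjustment (adjusted p = 0.884 for Nos2 and 0.9999 for Lcn2), and Nos2 differed by 0.03 and 0.19 on the other 2 tested probe sets. F3, the tissue factor that starts coagulation, lay on the other side, at 7.95, 8.64 and 8.71 in normal and 7.67 and 7.36 in diabetic cells, a difference of -0.92 (SE 0.40). The targets most used as readouts of NF-κB gave no common direction. The adhesion molecule gene Icam1 was 0.47 (SE 0.39) above normal by its brighter probe set, 0.27 without normal array 2 and 0.28 without diabetic array 2, and 0.65 (SE 0.44) above by the dimmer one. Vcam1, also of an adhesion molecule, gave -0.55 (SE 0.31) by its brighter probe set, -0.94 without diabetic array 1 and -0.16 without diabetic array 2, and 0.17 (SE 0.59) by the dimmer one. The chemokine Ccl2 differed by -0.21 (SE 0.48) and -0.40 (SE 0.51), and the first of these values ran from -0.46 without normal array 1 to -0.0091 without diabetic array 1. Both probe sets of Il6 were at the floor on all arrays. The sign of Ccl2 (-0.21) became positive, at 0.28, in the unscaled values, in which the median of all tested probe sets was itself 0.47.

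**Figure D3:**
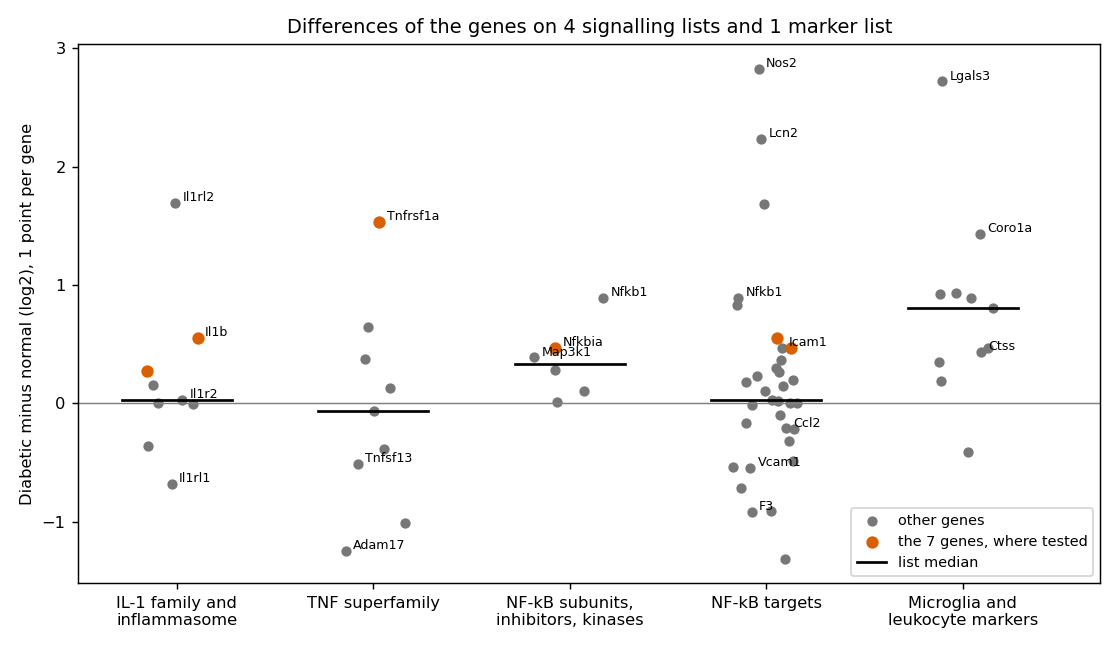
Each point is the log2 difference, diabetic minus normal, of 1 gene by its brightest tested probe set, in 4 signalling lists and the list of microglia and leukocyte markers; orange points are those of the 7 genes that were tested and black bars the list medians. The medians are 0.03, -0.07, 0.33, 0.02 and 0.80 from left to right.

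Of the 7 genes 4 were tested, and 2 of these spanned at least 1 log2 unit over the 5 arrays, Tnfrsf1a (2.50) and Il1b (1.22). The brightest tested probe set of each gene was used. Among 3622 other genes the centred profile nearest to that of Tnfrsf1a was that of the complement component C3, with a root mean square difference of 0.19 over the 5 arrays, followed by Plek (0.23) and Cspg4 (0.28), against a median of 0.94 over all. C3 differed by 1.68, Plek by 1.27 and Cspg4 by 1.01. The profiles nearest to Il1b were those of Mak (0.08), Fabp5 (0.11) and Ptpn21 (0.13), against a median of 0.53. These likenesses rest on 5 arrays and carry no test.

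**Figure D4:**
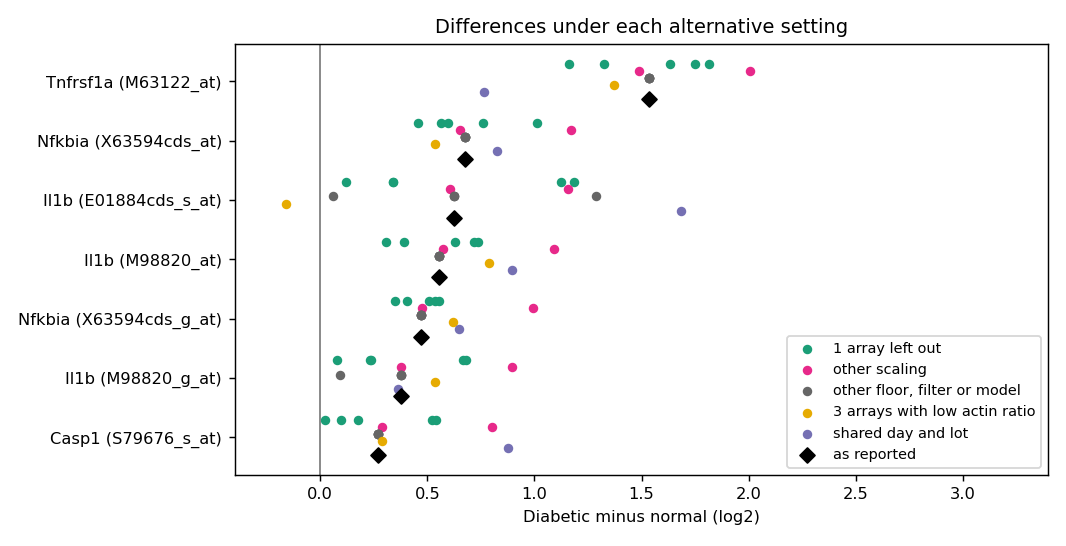
For each of the 7 tested probe sets the log2 difference as reported (black diamond) is set beside its value under every alternative that was run, coloured by kind. For Tnfrsf1a they ran from 0.76 to 2.01 and for Casp1 from 0.02 to 0.88, and only E01884cds_s_at of Il1b crossed 0, at -0.16.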

How the data were processed

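The authors deposited a linear signal intensity for each of 8799 probe sets on 5 arrays. The summary algorithm and scaling were not given in any source used, while chip type, lot and processing day were read from the experiment records, per the file headers. No deposited value was below 0, and the arrays' 2% trimmed means differed by a factor of 3.52, so values were quantile-normalised, floored at 20 and put on the log2 scale. The 59 control probe sets and the 30% dimmest by the mean of both groups were then left out. With limma 3.58.1 in R 4.3.3, the mean of the diabetic arrays was set against the 3 normal pools (lmFit, eBayes with trend, 2 residual and 3.54 prior degrees of freedom), two-sided, with Benjamini-Hochberg adjustment over 6118 probe sets at 0.05. The step was tested on simulated data. The number of arrays limits the precision, and with 1 pool against 3 an exact permutation test could not go below p = 0.25.

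Symbols came from the platform annotation, and all 16 probe sets matched RefSeq (GRCr8) by gene ID with 0 symbols changed. Promoters are RefSeq's, with that table's build. For a gene on a list, the brightest tested probe set was used. Named were all probe sets of the 7 genes and 9 genes always reported where measured. From each signalling list the 3 genes with the largest moderated statistic were named. For those of the 7 genes that were tested and spanned at least 1 log2 unit, the 3 nearest profiles were named. The genes, lists and alternatives were chosen with earlier results of these data known. Alternatives were 2 other scalings, 2 floors, 2 filters, eBayes without trend, separate arrays, another threshold, the arrays of the shared day, the arrays with a low actin ratio and leaving out each array. Figures were drawn with matplotlib 3.10.9.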

Additional observations from a re-analysis of the deposited data

How the results depend on the processing

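The count of probe sets with an adjusted p under 0.05 (limma) was 0 as reported and 0 when any 1 array was left out (0 to 0), unscaled, at a common median, with either floor, with the lowest 50% dropped, without trend, among the 3 low-ratio arrays and at a threshold of 0.1. It was 170 with no filter and 13 with the 5 arrays as separate samples. With no filter 1 probe set of the 7 genes passed, U14010_g_at of Il1r1, whose normal arrays all sat at the floor and so had no spread; in every other setting run 0 passed. Counts at an unadjusted p under 0.05 ran from 34 (unscaled) to 533 (3 low-ratio arrays) around the 98 reported. For Tnfrsf1a the unadjusted p in limma ran from 0.00576 with separate arrays to 0.236 unscaled, with an adjusted p of at least 0.554.

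Unscaled, 90.3% of tested probe sets lay above normal against 48.8% as reported, and the median shifted to 0.47. Relative to that median the unscaled difference of Tnfrsf1a was 1.53. Of the 7 tested probe sets 6 kept their sign in every setting that gave a value, and E01884cds_s_at of Il1b read -0.16 among the 3 low-ratio arrays and 1.69 within the same-day pair. Il1r2 ran from -0.28 to 0.45 when 1 array was left out (-0.07 without normal array 2, -0.10 without diabetic array 1). Tnfsf13 ran from -1.11 to 0.088 when 1 array was left out (0.088 without diabetic array 1) and was 0.020 unscaled, where Ccl2 was 0.28. The causes were not tested. The pool as a random block could not be fitted, because no correlation could be estimated from 1 repeated pool. No paired analysis was possible because the labels number normal arrays as biological and diabetic arrays as technical replicates, with no number that ties the groups. Signals near the floor limit what can be said of Il1r1, Il18 and Tnf.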

Other observations

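By the brightest tested probe set of each gene, some known NF-κB targets separated from normal in each direction. Of the 33 tested, both diabetic arrays exceeded every normal array for 7 (21.2%, against 9.83% of all tested genes). They lay below every normal array for 6 (18.2%, against 7.01%). Above were Nos2, Lcn2, C3, Nfkb1, Csf1, Il1b and Nfkbia, and below were Junb, Ccl20, Vcam1, Ptgs2, F3 and Lif. The nearest arrays of Il1b lay only 0.033 apart, and the other tested probe sets of Il1b and Nfkbia overlapped normal. Other probe sets of Nos2 differed by 0.03 and 0.19, and the dimmer one of Vcam1 by 0.17, in the other direction. C3, Junb and Ptgs2 each had 1 other tested probe set, which is not described here. Ccl20 read 4.47 and 4.42 on the diabetic arrays, near the floor. The genes named here beyond the earlier ones were chosen after their values were seen, and none passed limma's adjustment. The macrophage growth factor Csf1 read 5.61, 6.33 and 6.19 on the normal arrays and 6.77 and 6.97 on the diabetic arrays. The prostaglandin synthase Ptgs2 read 6.81, 7.10 and 7.20 on the normal arrays and 6.42 and 6.22 on the diabetic arrays, and the cytokine Lif 6.58, 6.05 and 4.89 against 4.73 and the floor.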
